A study of Mus musculus with 36 samples.

Results

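The 28 genes described here encode the enzymes that build cholesterol, the sensor that switches those enzymes on, and proteins that move or store sterol inside the cell. They were taken by name from a list and make up 28 of the 29546 genes in the table of liver RNA. The list holds 6 enzymes of the mevalonate arm, 5 of the prenyl and squalene steps, 9 that turn lanosterol into cholesterol, 4 genes of the SREBP2 sensor and 4 of sterol handling. All 28 passed the filter on low values, which kept 12596 genes.

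Cholesterol is made from acetyl-CoA in a long linear pathway, through mevalonate, isoprenoid diphosphates, squalene and lanosterol. The transcription factor SREBP2, the product of Srebf2, is held in the endoplasmic reticulum by its escort SCAP and by INSIG proteins when sterol is plentiful. When sterol is low, SCAP carries SREBP2 to the Golgi, where it is cut, and the freed fragment enters the nucleus and raises nearly every gene of the pathway. The liver is the main organ that turns cholesterol into bile acids and secretes both into bile, which is the route that cholestasis blocks.

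Livers of C57BL/6 mice came from 9 groups of 4. Bile duct ligation, surgery that closes the duct draining the liver, was sampled after 28 days (BDL28) and 7 days (BDL7), against sham surgery (SHAM). A diet with 0.1% by weight of 3,5-diethoxycarbonyl-1,4-dihydrocollidine, a compound that makes porphyrin accumulate and injures bile ducts, was sampled after 28 days (DDC28) and 7 days (DDC7), against a control diet (CTLD). Cyclosporin A, a drug that suppresses immunity and can slow bile flow, was gavaged in olive oil at 15 mg per kg of body weight and sampled after 28 days (CsA28) and 7 days (CsA7), against olive oil alone (VEHICLE). The series calls day 28 chronic and day 7 acute cholestasis. No day is labelled for the control mice, so each control group served both days, and the 2 days of a model share their controls. The labels give neither age nor sex.

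Libraries held 2081093 to 3770267 reads, with a median of 2826073, and 15816 to 18623 genes had at least 1 read. Levels are the authors' normalized counts, which are gene counts divided by 1 factor per library. They allow a gene to be compared between libraries but not one gene with another. A difference is that of log2(normalized count + 1) with its standard error, and "rose" and "fell" mean a limma adjusted p under 0.05 over all genes tested. RNA came from whole liver, so fewer hepatocytes and less RNA per hepatocyte cannot be told apart. The summed level of 10 hepatocyte markers ran over 41600–50300 in BDL28, 36030–47130 in BDL7 and 67470–74660 in SHAM. It ran over 41460–50920 in DDC28, 42240–54670 in DDC7 and 77660–96760 in CTLD. It ran over 75800–85580 in CsA28, 67480–81720 in CsA7 and 81810–95330 in VEHICLE. None of the 10 was at 0 in all libraries, and 6 fell in BDL28, 9 in BDL7, 9 in DDC28, 8 in DDC7 and 0 in either cyclosporin A group. Of 8 cholangiocyte markers 7 rose in BDL28, 8 in BDL7, 7 in DDC28 and 4 in DDC7, and of 8 fibroblast markers 5, 7, 7 and 6 rose in the same order. Of 8 macrophage markers 4 rose and 1 fell in BDL28, and 7 rose in BDL7, 5 in DDC28 and 4 in DDC7. The sum of 8 cholangiocyte markers, among them Spp1, Sox9 and Epcam, ran over 1011–2902 in BDL28, 1866–3092 in BDL7 and 304.8–496.4 in SHAM, and over 1277–2427 in DDC28, 1278–1761 in DDC7 and 314.2–418.6 in CTLD. The sum of 8 macrophage markers, led by Lyz2, ran over 710.2–2248 in BDL28, 1459–1879 in BDL7 and 524.1–682.5 in SHAM, and over 1781–2564 in DDC28, 1252–1816 in DDC7 and 538.2–675.4 in CTLD. Of 3 neutrophil markers tested 2, 2, 3 and 2 rose in BDL28, BDL7, DDC28 and DDC7, and of 5 endothelial markers 4, 2, 4 and 2 fell. Within BDL28, replicate 1 stood apart, with 2118 for Spp1 (599 to 697 in the others), 207 for Epcam (at most 69.6), 543 for Col1a2 (61.6 to 99.4) and 548 for Gpnmb (77.2 to 238). The same liver was the lowest of BDL28 for Srebf2, Hsd17b7, Sqle, Fdft1, Lss, Insig1, Insig2, Ebp, Scap and others of the 28 genes. The 18 of the 28 genes called in BDL28 against SHAM were called without it too. The part of these markers in the results on ligation and DDC that follow was not tested.

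Upstream windows are shown for 6 genes, 4 that rose (Hmgcs1, Msmo1, Srebf2 and Cyp51) and 2 that fell (Sc5d and Tm7sf2) on day 28 of both ligation and DDC. Hmgcs1, Msmo1 and Srebf2 are the genes of those that rose whose window holds TCACNCC, a short form of the sterol regulatory element. Cyp51 is shown as one of those without these letters. Forms of the element with other letters were not searched. Each window holds 250 bases before and 50 after a transcription start in RefSeq, on build GRCm38.p6, written 5′ to 3′ on the gene's strand. Capitals mark the short form of the sterol regulatory element (TCACNCC) and the NF-Y box (CCAAT) on either strand. SREBP2 binds sterol regulatory elements, and NF-Y is a factor that often binds beside it. The windows lie at chr13:119690101-119690400, plus strand (Hmgcs1), chr8:64733529-64733828, minus strand (Msmo1), chr15:82147019-82147318, plus strand (Srebf2), chr5:4104648-4104947, minus strand (Cyp51), chr9:42264251-42264550, minus strand (Sc5d) and chr19:6067801-6068100, minus strand (Tm7sf2).
Hmgcs1: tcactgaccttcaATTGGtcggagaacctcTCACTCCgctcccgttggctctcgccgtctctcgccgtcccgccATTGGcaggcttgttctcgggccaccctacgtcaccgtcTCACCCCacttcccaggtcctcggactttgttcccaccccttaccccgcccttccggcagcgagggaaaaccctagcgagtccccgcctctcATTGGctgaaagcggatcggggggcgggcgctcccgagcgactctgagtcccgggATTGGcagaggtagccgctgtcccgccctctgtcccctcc
Msmo1: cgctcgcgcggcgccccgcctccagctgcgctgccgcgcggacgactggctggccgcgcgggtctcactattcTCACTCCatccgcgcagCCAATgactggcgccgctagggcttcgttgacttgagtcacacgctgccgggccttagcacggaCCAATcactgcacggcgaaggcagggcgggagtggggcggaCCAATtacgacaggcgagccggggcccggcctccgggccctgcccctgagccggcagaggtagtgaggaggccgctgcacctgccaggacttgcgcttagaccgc
Srebf2: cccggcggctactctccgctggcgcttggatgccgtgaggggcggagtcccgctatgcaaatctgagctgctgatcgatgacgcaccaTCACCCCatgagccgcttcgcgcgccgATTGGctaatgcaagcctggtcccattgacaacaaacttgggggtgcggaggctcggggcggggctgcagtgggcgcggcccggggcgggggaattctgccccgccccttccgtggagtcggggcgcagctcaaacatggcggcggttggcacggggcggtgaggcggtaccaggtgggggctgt
Cyp51: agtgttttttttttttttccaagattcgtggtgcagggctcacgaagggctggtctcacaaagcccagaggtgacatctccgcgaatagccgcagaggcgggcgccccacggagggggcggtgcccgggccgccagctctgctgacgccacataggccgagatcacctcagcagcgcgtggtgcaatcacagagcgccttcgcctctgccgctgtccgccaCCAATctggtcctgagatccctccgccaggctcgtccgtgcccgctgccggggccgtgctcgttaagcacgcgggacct
Sc5d: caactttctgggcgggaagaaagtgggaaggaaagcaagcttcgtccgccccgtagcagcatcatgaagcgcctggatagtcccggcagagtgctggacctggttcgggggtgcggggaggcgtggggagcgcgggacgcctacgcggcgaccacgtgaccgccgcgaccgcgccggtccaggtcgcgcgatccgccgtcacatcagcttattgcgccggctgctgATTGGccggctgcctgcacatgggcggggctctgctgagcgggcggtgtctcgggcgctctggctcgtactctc
Tm7sf2: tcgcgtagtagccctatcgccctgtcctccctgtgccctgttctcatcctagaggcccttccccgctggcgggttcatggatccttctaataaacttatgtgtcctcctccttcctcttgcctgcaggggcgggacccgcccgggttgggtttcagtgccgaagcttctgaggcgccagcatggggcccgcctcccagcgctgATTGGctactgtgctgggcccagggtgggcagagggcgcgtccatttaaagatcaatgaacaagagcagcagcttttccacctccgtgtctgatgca

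Of the 28 genes, 22 had a window, with 28 windows in all. The NF-Y box was in 20 of these 28 windows (71.4%), against 37.4% of all 32851 windows, and the GC box GGGCGG, the site of SP1, was in 23 (82.1%), against 35.7%. Matches on either strand were counted. The sterol regulatory element TCACNCCAC was in 1 of 28 windows, that of Hmgcs1, against 1.24% of all windows. Its short form, which is contained in the longer one and was searched after that count had been seen, was in 6 of 28 windows (21.4%) of 5 genes, against 15.6%. These 5 were Hmgcs1, Msmo1, Srebf2, Acat2 and Insig2, of which Acat2 was called against no control and Insig2 fell with ligation. Among the 11 genes that rose on day 28 in both models, 7 had a window. All 7 held an NF-Y box, 3 held the short element and Mvk, Cyp51, Lbr and Hsd17b7 did not. Among the 5 that fell in both, 4 held an NF-Y box in some window and 0 held the short element. These groups were formed after the calls were known, and a match describes letters and not binding.

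On day 28 of ligation, genes of the pathway moved in both directions. Of the 28 genes 12 rose and 6 fell. Over all genes tested, 46.8% passed the same test, 24.1% higher and 22.7% lower. Those that rose were 2 enzymes of the mevalonate arm, 3 of the prenyl and squalene steps and 4 of the 9 after lanosterol, with Srebf2, Soat2 and Npc1. Those that fell were 4 others of the 9 enzymes after lanosterol, with Scap and Insig2. The median difference of the 28 genes was 0.22, against 0.03 over all genes.

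DDC feeding for 28 days gave 13 that rose and 8 that fell, with 52.7% of all genes called, 27.9% higher and 24.7% lower. Their median difference was 0.25, against 0.04 over all genes. Libraries scaled by their total reads gave 15 that rose and 4 that fell, and that scaling raised the median of all genes to 0.39. Ligation and DDC share no libraries, and 16 genes were called in both on day 28, which is 88.9% of the ligation calls and 76.2% of the DDC calls. Of these 16, 11 rose in both, 5 fell in both and 0 went opposite ways. For all genes the corresponding shares were 71.5% and 63.5%, and 97.7% of the shared calls had one direction. Those that rose in both were Hmgcs1, Mvk, Fdft1, Sqle, Cyp51, Lbr, Msmo1, Hsd17b7, Srebf2, Soat2 and Npc1. Those that fell in both were Tm7sf2, Ebp, Sc5d, Dhcr7 and Scap.

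Fewer genes of the pathway were called on day 7. In BDL7 1 rose and 6 fell, with 38.7% of all genes called, 20.2% higher and 18.5% lower. That split depended on the scaling, with 12 that rose and 3 that fell under total-read scaling and 4 and 4 under quantile normalization. In DDC7 7 rose and 7 fell, with 46.8% of all genes called, 24.7% higher and 22.1% lower. The split was 16 and 3 under total-read scaling and 10 and 6 under quantile normalization. Under total-read scaling the median difference of all genes was 0.33 in BDL7 and 0.38 in DDC7, against 0.01 and 0.04 under the deposited scaling. Under quantile normalization it was -0.06 and -0.03. Calls over all genes were not split by direction under these other scalings, here or for the other groups. Their totals are not given either, so these counts cannot be set against a share of all genes. On day 7, 6 genes were called in both models, 1 that rose and 5 that fell, which is 85.7% of the BDL7 calls and 42.9% of the DDC7 calls, against 68.6% and 56.8% for all genes.

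Cyclosporin A moved few of them past the test. In CsA28 0 genes were called, with 0.0238% of all genes called (0.00794% higher, 0.0159% lower), and 13 of 28 had an unadjusted p under 0.05. The share of all genes under that unadjusted cutoff was not counted, here or in the comparisons below. Of the 28, edgeR called 0 and DESeq2 3 in those libraries, with 2 and 68 of all genes. In CsA7 1 rose and 1 fell, with 4.03% of all genes called, 1.88% higher and 2.14% lower, and the split was 8 and 1 under total-read scaling. The count was 4 without CsA7 replicate 2 and 1 without CsA7 replicate 3 or 4. Those 3 fits called 489, 303 and 228 of all genes, against 507 with all libraries.

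**Figure D1:**
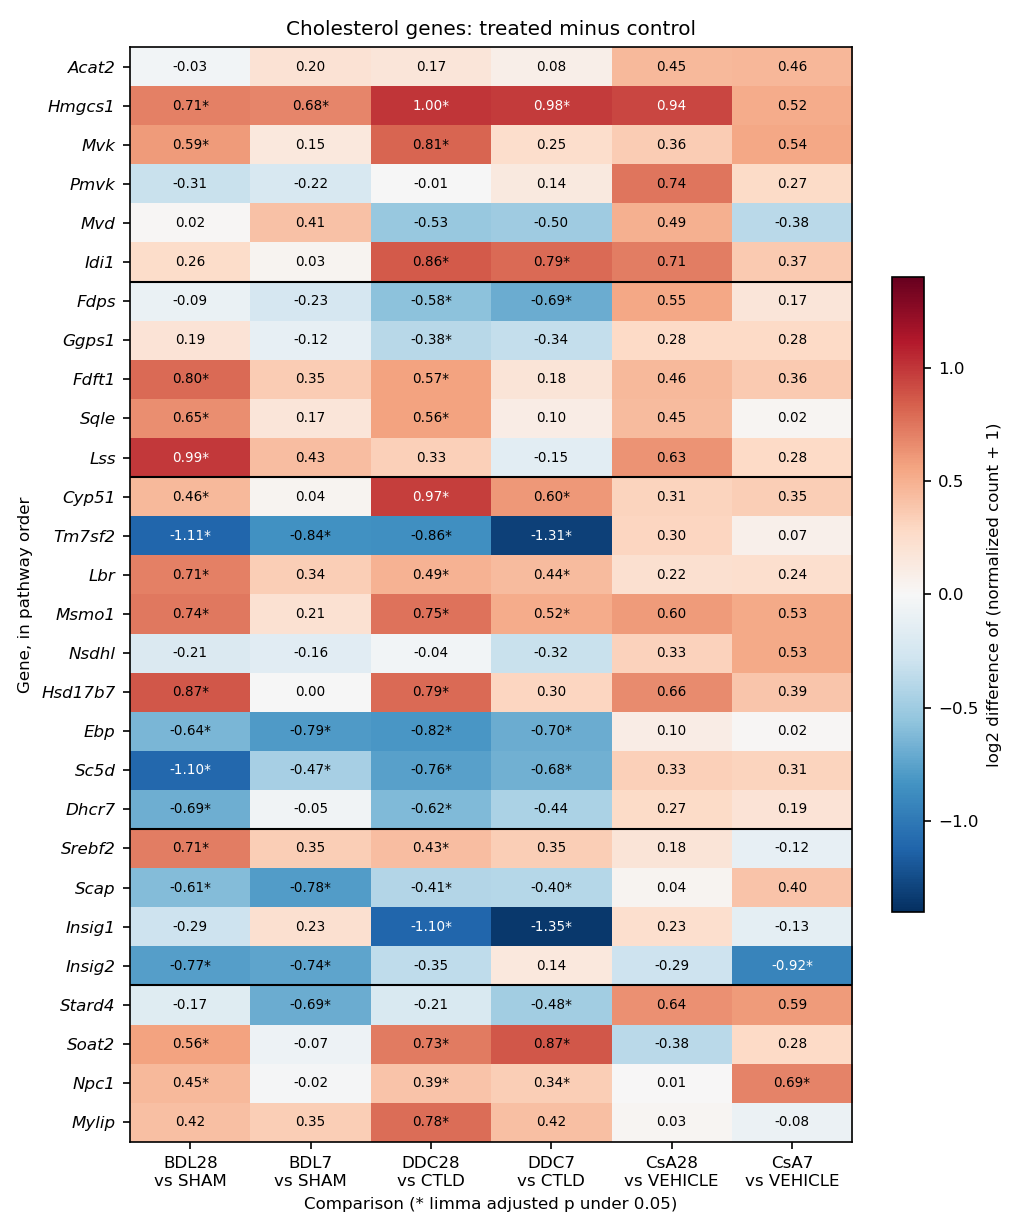
Differences of log2(normalized count + 1) between each treated group and its control for the 28 genes, in pathway order, with lines between the roles and a star where the limma adjusted p was under 0.05. The 16 rows with a star in both the BDL28 and the DDC28 column have 1 color in both, and the signs differ in rows such as Ggps1, Mvd and Acat2. The 20 enzymes in the CsA28 column are all above 0 and none carries a star.

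The pathway opens with Acat2, the cytosolic thiolase that joins acetyl-CoA units, and Hmgcs1, the cytosolic HMG-CoA synthase (ENSMUSG00000093930). Hmgcs1 was the gene of the mevalonate arm called in all 4 ligation and DDC comparisons. Its level was 3158, 2939, 4068 and 4369 in BDL28, 3368, 3304, 4007 and 3408 in BDL7 and 2004, 2259, 2433 and 2091 in SHAM. All 8 ligated livers lay above all 4 SHAM livers, and the difference was 0.71 ± 0.21 in BDL28 (limma adjusted p = 0.00568) and 0.68 ± 0.21 in BDL7 (adjusted p = 0.00944). Its level was 3278, 4147, 2526 and 2523 in DDC28, 2842, 3123, 3018 and 3041 in DDC7 and 1667, 1685, 1574 and 1231 in CTLD. Again no liver overlapped with its control, and the difference was 1.00 ± 0.21 in DDC28 (limma adjusted p = 0.000171) and 0.98 ± 0.21 in DDC7 (adjusted p = 0.000291). In the cyclosporin A groups its level was 1779.9, 3587, 1439 and 2734 in CsA28, 2325, 1541, 1709.9 and 1293 in CsA7 and 1077, 941, 1485 and 1228 in VEHICLE. CsA28 was spread widely, and its difference of 0.94 ± 0.21 did not pass the test (limma adjusted p = 0.12). It did pass with DESeq2, with total-read scaling, and without VEHICLE replicate 3 or CsA28 replicate 3.

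Idi1, the isomerase that balances the isoprenoid units, rose with DDC. Its level was 1702, 1724, 1648 and 1561 in DDC28, 1604, 1605, 1809.7 and 1343 in DDC7 and 1116, 578, 1075 and 1009 in CTLD, without overlap at either day. The differences were 0.86 ± 0.22 in DDC28 (limma adjusted p = 0.00151) and 0.79 ± 0.22 in DDC7 (adjusted p = 0.00375). In ligated livers its level was 1536, 1537, 2287 and 2702 in BDL28, 1433, 1658, 2162 and 1527 in BDL7 and 1577, 1527, 1709.6 and 1739.7 in SHAM, which overlapped, with differences of 0.26 ± 0.22 and 0.03 ± 0.22. The difference between the models' effects did not pass the test on either day.

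Mevalonate kinase, the product of Mvk, rose in DDC28, at 72.4, 96.1, 75.1 and 82.7 in DDC28 against 49.7, 43.7, 41.8 and 48 in CTLD, by 0.81 ± 0.24 (limma adjusted p = 0.00471). Its call in BDL28 was fragile, at 53.1, 78.1, 113 and 86.8 in BDL28 against 39.9, 49.6, 63.1 and 61.7 in SHAM. The groups overlapped, the difference was 0.59 ± 0.24 (limma adjusted p = 0.0414), and the call was lost under 9 of 18 alternatives, among them without any one of BDL28 replicates 2, 3 and 4 or SHAM replicates 1 and 2. Acat2, Pmvk and Mvd, which act before and after that step, passed the test in none of the 6 comparisons with controls. Their differences ran over -0.03 to 0.46 for Acat2, -0.31 to 0.74 for Pmvk and -0.53 to 0.49 for Mvd.

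From isoprenoids the pathway either branches to prenyl lipids or joins farnesyl units into squalene. Fdps, the farnesyl diphosphate synthase before the branch, fell with DDC. Its level was 382, 455, 359 and 259.9 in DDC28, 358, 367, 303 and 297 in DDC7 and 563, 617, 514 and 451 in CTLD. All DDC7 livers lay below CTLD and 1 DDC28 liver overlapped, with differences of -0.58 ± 0.19 (limma adjusted p = 0.0111) and -0.69 ± 0.19 (adjusted p = 0.00328). Neither call held under total-read scaling, and that of DDC28 was lost without DDC28 replicate 4. Ggps1, the synthase of the geranylgeranyl branch, had 69.5, 62.7, 57.9 and 53.3 in DDC28 against 85.1, 92.3, 61.3 and 81.8 in CTLD, with overlap. It fell by 0.38 ± 0.14 on the log2 scale (limma adjusted p = 0.0249). It lost that call under 8 of 18 alternatives, among them total-read scaling (difference -0.03) and the omission of DDC28 replicate 3 or 4 or of CTLD replicate 1, 2 or 4.

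Sqle, the squalene epoxidase and a slow step of the pathway, rose on day 28 of both models. Its level was 483, 752, 876 and 716 in BDL28, 495, 513, 597 and 396 in BDL7 and 416, 448, 437 and 466 in SHAM, and the 4 BDL28 livers lay above every SHAM liver by a difference of 0.65 ± 0.17 (limma adjusted p = 0.00215). It was 508, 504, 465 and 512 in DDC28, 335, 362, 349.8 and 399 in DDC7 and 348, 311, 419 and 282 in CTLD, and DDC28 lay above CTLD by 0.56 ± 0.17 (limma adjusted p = 0.00577). On day 7 the differences were 0.17 ± 0.17 with ligation and 0.10 ± 0.17 with DDC, neither past the test.

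Fdft1, the squalene synthase, also rose on day 28 of both. Its level was 319, 449, 584 and 618 in BDL28 against 237, 284, 287 and 292 in SHAM, and 379, 409, 392 and 326 in DDC28 against 255, 269, 283 and 211 in CTLD, with no overlap in either pair. The differences were 0.80 ± 0.17 in BDL28 (limma adjusted p = 0.000274) and 0.57 ± 0.17 in DDC28 (adjusted p = 0.00601). Lss, the cyclase that closes squalene epoxide into lanosterol, had 175, 221, 325 and 311 in BDL28, 159.6, 159, 210.4 and 154 in BDL7 and 119.7, 134, 154 and 99.6 in SHAM, and BDL28 lay above SHAM without overlap, by 0.99 ± 0.24 (limma adjusted p = 0.000902). With DDC its differences were 0.33 ± 0.24 and -0.15 ± 0.24, neither past the test, and the difference between the models' effects did not pass it either. The last 500 bases of Fdft1 overlap Ctsb and those of Lss a predicted transcript, each on the other strand, and those of Fdps overlap Gm43738 on the same strand (GENCODE M21). The sources used here do not give the strand used in counting, so these 3 genes are uncertain to that extent.

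**Figure D2:**
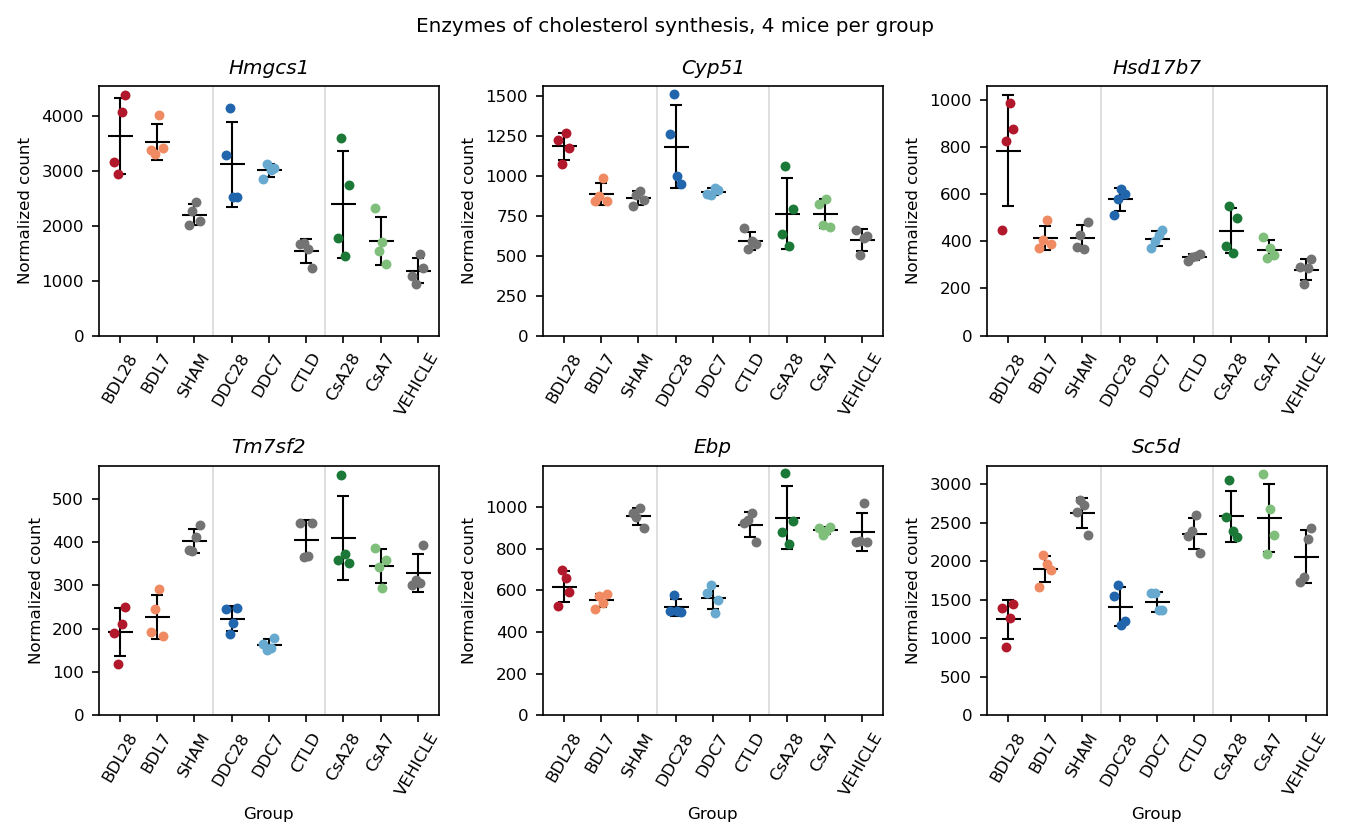
Normalized counts of 6 enzymes in each liver (points), with the mean and SD of 4 livers per group (bars). In the upper row Hmgcs1, Cyp51 and Hsd17b7 are higher in BDL28 and DDC28 than in SHAM and CTLD, and in the lower row Tm7sf2, Ebp and Sc5d are lower in all 4 ligation and DDC groups.

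The 9 enzymes after lanosterol split into those that rose and those that fell, 4 and 4 in BDL28 and 4 and 4 in DDC28, and Nsdhl moved in neither. Cyp51, the lanosterol demethylase that begins this stretch (ENSMUSG00000001467), rose with DDC at both days. Its level was 1260.3, 1509.7, 998 and 949 in DDC28, 884, 876, 924 and 909 in DDC7 and 673, 541, 588 and 571 in CTLD. Without any overlap, the difference was 0.97 ± 0.13 in DDC28 (limma adjusted p = 2.18e-07) and 0.60 ± 0.13 in DDC7 (adjusted p = 0.000376). After ligation its level was 1222, 1069, 1264 and 1173 in BDL28, 839, 873, 987 and 843 in BDL7 and 809, 881, 904 and 844 in SHAM. BDL28 lay above SHAM by 0.46 ± 0.13 (limma adjusted p = 0.00525), while BDL7 overlapped with it (0.04 ± 0.13). The last 500 bases of Cyp51 overlap Akap9 on the other strand.

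The next reduction can be made by either of 2 enzymes, of which Tm7sf2 fell and Lbr rose in BDL28, DDC28 and DDC7. Tm7sf2, a reductase of the endoplasmic reticulum (ENSMUSG00000024799), fell in all 4 ligation and DDC groups. Its level was 189.9, 119, 209.9 and 251 in BDL28, 191, 245, 291 and 182 in BDL7 and 381, 379, 410.3 and 439 in SHAM. It was 244, 187, 213 and 247 in DDC28, 166, 152, 155 and 179 in DDC7 and 444, 366, 368 and 444 in CTLD. No treated liver reached its control range in either model. The level fell by 1.11 ± 0.16 in BDL28 (limma adjusted p = 1.11e-06), by 0.84 ± 0.16 in BDL7 (adjusted p = 9.79e-05), by 0.86 ± 0.16 in DDC28 (adjusted p = 4.21e-05) and by 1.31 ± 0.16 in DDC7 (adjusted p = 7.21e-08), all on the log2 scale. Lbr, a reductase of the inner nuclear membrane that also binds lamin and chromatin, was called in 3 of these 4 groups. Its level was 102, 186, 166 and 120.0 in BDL28 against 75.7, 98, 86.3 and 81.8 in SHAM, and it rose without overlap by 0.71 ± 0.16 (limma adjusted p = 0.000522). In BDL7 its level was 100.3, 106, 115 and 113 in BDL7, and its difference of 0.34 ± 0.16 did not pass the test (limma adjusted p = 0.0933). With DDC it was 89.6, 103, 91.3 and 102 in DDC28, 92.9, 101, 72.7 and 111 in DDC7 and 67.9, 66.4, 50.9 and 96 in CTLD, with overlap at both days. The differences were 0.49 ± 0.16 (limma adjusted p = 0.0121) and 0.44 ± 0.16 (adjusted p = 0.025). The DDC28 call was lost without CTLD replicate 3, and the DDC7 call was lost without CTLD replicate 2 or 3 or DDC7 replicate 2 or 4.

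Msmo1, Nsdhl and Hsd17b7 work together to strip methyl groups from the sterol ring. Msmo1, the methylsterol oxidase (ENSMUSG00000031604), had 1154, 1533, 2062 and 1786 in BDL28, 1008, 1065, 1386 and 1007 in BDL7 and 896, 866, 965 and 1118 in SHAM. BDL28 lay wholly above SHAM (0.74 ± 0.20, limma adjusted p = 0.00267) and BDL7 overlapped with it (0.21 ± 0.20). It had 1207, 1468, 1243 and 1109 in DDC28, 1014, 1040.4, 1169.9 and 1030.5 in DDC7 and 698, 856, 836 and 601 in CTLD. Both DDC groups lay above CTLD, by 0.75 ± 0.20 (limma adjusted p = 0.00185) and 0.52 ± 0.20 (adjusted p = 0.0309), though the DDC7 call was lost without CTLD replicate 1 or 4 or DDC7 replicate 3. Hsd17b7, the ketosteroid reductase of this trio, had 448, 827, 989 and 875 in BDL28, 371, 406, 489 and 390.0 in BDL7 and 377, 428, 369 and 484 in SHAM. In BDL28 3 of 4 livers stood well above SHAM and 1 lay within it, and the gene rose by 0.87 ± 0.16 (limma adjusted p = 4.24e-05). It had 511, 579.7, 621 and 601 in DDC28, 371, 399.5, 426 and 447 in DDC7 and 317, 334, 338 and 346 in CTLD, and rose in DDC28 by 0.79 ± 0.16 (limma adjusted p = 0.000114). On day 7 its difference was -0.002 ± 0.16 with ligation and 0.30 ± 0.16 with DDC, neither past the test. Nsdhl, the dehydrogenase, passed the test in no comparison with a control, and its differences ran over -0.32 in DDC7 to 0.53 in CsA7.

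Ebp and Sc5d fell in all 4 ligation and DDC groups, and Dhcr7 fell on day 28. Ebp, the sterol isomerase (ENSMUSG00000031168), had 523, 696, 660.3 and 593 in BDL28, 511, 572, 541 and 582 in BDL7 and 973, 954, 996 and 900.1 in SHAM. It had 502, 578, 499 and 494 in DDC28, 587, 626, 493 and 555 in DDC7 and 922, 936, 969.5 and 830.3 in CTLD. Every treated liver lay below every control of its model. The difference was -0.64 ± 0.10 in BDL28 (limma adjusted p = 1.2e-06), -0.79 ± 0.10 in BDL7 (adjusted p = 3.62e-08), -0.82 ± 0.10 in DDC28 (adjusted p = 6.85e-09) and -0.70 ± 0.10 in DDC7 (adjusted p = 2.83e-07).

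Sc5d, the desaturase that adds a double bond to the sterol ring (ENSMUSG00000032018), had 1400.0, 882, 1264 and 1445 in BDL28, 1672, 2078, 1958 and 1887 in BDL7 and 2641, 2791, 2727 and 2344 in SHAM. The 3 groups did not overlap, and BDL28 was the lowest, with differences from SHAM of -1.10 ± 0.14 in BDL28 (limma adjusted p = 4.66e-08) and -0.47 ± 0.14 in BDL7 (adjusted p = 0.00649). The BDL7 direction turned under quantile normalization, to 0.09, and its call was lost under total-read scaling. With DDC the level was 1554, 1688, 1175 and 1223 in DDC28, 1591, 1585, 1363 and 1361 in DDC7 and 2330.4, 2391, 2604 and 2113 in CTLD. Sc5d fell in both, without overlap, with differences of -0.76 ± 0.14 (limma adjusted p = 2.14e-05) and -0.68 ± 0.14 (adjusted p = 0.000127), and both calls were lost under quantile normalization, that of DDC7 also under total-read scaling. Dhcr7, the reductase near the pathway's end, had 73.8, 66.2, 109.6 and 115 in BDL28 against 159.6, 120.4, 175 and 126 in SHAM, and 103, 88.3, 57 and 69.8 in DDC28 against 115, 119.8, 154 and 97.1 in CTLD. Its differences were -0.69 ± 0.23 in BDL28 (limma adjusted p = 0.0135) and -0.62 ± 0.23 in DDC28 (adjusted p = 0.023). On day 7 they were -0.05 ± 0.23 in BDL7 (limma adjusted p = 0.895) and -0.44 ± 0.23 in DDC7 (adjusted p = 0.113), neither past the test. Total-read scaling ended both day 28 calls, and so did leaving out BDL28 replicate 2 or SHAM replicate 3 in ligation and DDC28 replicate 3 or 4 or CTLD replicate 3 in DDC.

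Ratios of 2 genes within a library do not depend on how the library was scaled, and 4 such ratios were formed after the values had been seen, as a description. Hmgcs1 over Sc5d was 2.26–3.33 in BDL28, 1.59–2.05 in BDL7 and 0.759–0.892 in SHAM. It was 2.06–2.46 in DDC28, 1.79–2.23 in DDC7 and 0.582–0.716 in CTLD. It was 0.602–1.18 in CsA28, 0.552–0.744 in CsA7 and 0.506–0.65 in VEHICLE. Ligated and DDC-fed livers stood apart from their controls at both days, and the cyclosporin A groups overlapped with VEHICLE. Cyp51 over Tm7sf2 was 4.68–9.02 in BDL28, 3.39–4.62 in BDL7 and 1.92–2.33 in SHAM. It was 3.84–8.06 in DDC28, 5.08–5.94 in DDC7 and 1.28–1.6 in CTLD. These ratios show unequal change of the genes in each pair.

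The sensor genes did not move as one. Srebf2, which encodes SREBP2 itself (ENSMUSG00000022463), had 207, 380.4, 381 and 338 in BDL28, 244, 242, 267 and 231 in BDL7 and 195, 173, 214 and 193 in SHAM. BDL28 replicate 1 lay within SHAM and the other livers of BDL28 far above it, with a difference of 0.71 ± 0.15 (limma adjusted p = 0.000204), and BDL7 lay above SHAM in every liver and missed the threshold (0.35 ± 0.15, adjusted p = 0.0676). With DDC it had 269.5, 238, 278 and 209 in DDC28, 245, 226, 253 and 209 in DDC7 and 171, 179.7, 224 and 161 in CTLD, with overlap. It rose in DDC28 by 0.43 ± 0.15 (limma adjusted p = 0.0162), a call lost without CTLD replicate 4 or DDC28 replicate 3.

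Scap, the escort protein (ENSMUSG00000032485), fell in the same livers. It had 194, 235, 251 and 248 in BDL28, 194, 217, 204 and 202 in BDL7 and 339, 340.1, 419.8 and 318 in SHAM. Both ligation groups lay below SHAM, with differences of -0.61 ± 0.14 (limma adjusted p = 0.000535) and -0.78 ± 0.14 (adjusted p = 2.94e-05). It had 227, 199, 213 and 206 in DDC28, 214, 236, 202 and 204 in DDC7 and 286, 261, 298 and 284 in CTLD. Both DDC groups lay below CTLD, with differences of -0.41 ± 0.14 (limma adjusted p = 0.0131) and -0.40 ± 0.14 (adjusted p = 0.0195), but total-read scaling ended both calls and left differences near 0 (-0.05 in each). The DDC7 call was also lost without CTLD replicate 3. Within a library, Srebf2 over Scap was 1.07–1.62 in BDL28, 1.12–1.31 in BDL7 and 0.507–0.608 in SHAM, and 1.01–1.3 in DDC28, 0.959–1.25 in DDC7 and 0.569–0.754 in CTLD.

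The products of the INSIG genes hold SCAP back when sterol is plentiful. Insig1, itself a target of SREBP in mouse liver (ENSMUSG00000045294), fell with DDC. Its level was 459.5, 545, 559.8 and 513 in DDC28, 400.0, 467, 437 and 446 in DDC7 and 929, 1046, 1219 and 1306 in CTLD. All 8 DDC livers lay far below CTLD, with differences of -1.10 ± 0.24 (limma adjusted p = 0.000345) and -1.35 ± 0.24 (adjusted p = 4.16e-05). After ligation it was 333, 541, 758 and 789.9 in BDL28, 744, 856, 916 and 766 in BDL7 and 747, 735, 608 and 713 in SHAM. Neither day passed the test, with differences of -0.29 ± 0.24 and 0.23 ± 0.24. The BDL7 effect minus the DDC7 effect was 1.58 ± 0.34 (limma adjusted p = 0.0046), a call kept under all 26 alternatives. On day 28 this difference between the models was 0.82 ± 0.34 (limma adjusted p = 0.122). Within a library, Hmgcs1 over Insig1 was 4.51–7.61 in DDC28, 6.68–7.1 in DDC7 and 0.942–1.8 in CTLD. It was 5.37–9.5 in BDL28, 3.86–4.52 in BDL7 and 2.68–4 in SHAM, so BDL7 overlapped with SHAM.

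Insig2, whose liver transcript is lowered by insulin (ENSMUSG00000003721), fell with ligation. It had 651, 1306, 1187 and 1583 in BDL28, 1076, 1195, 1237 and 1101 in BDL7 and 1799, 2071, 2054 and 1787 in SHAM. Both groups lay below SHAM, with differences of -0.77 ± 0.22 (limma adjusted p = 0.00394) and -0.74 ± 0.22 (adjusted p = 0.00672), the BDL7 call being lost under total-read scaling and quantile normalization. With DDC it had 719, 869, 1016 and 1235 in DDC28, 1377, 1459, 1036 and 1486 in DDC7 and 1154, 1349, 1200.5 and 1111 in CTLD, and passed the test on neither day. For Insig2 the BDL7 effect minus the DDC7 effect was -0.88 ± 0.30 (limma adjusted p = 0.0671). SHAM was the highest of the 3 control groups for this gene, at 1928 ± 156 in SHAM, 1203 ± 104 in CTLD and 1197 ± 174 in VEHICLE (SD, n = 4 each).

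**Figure D3:**
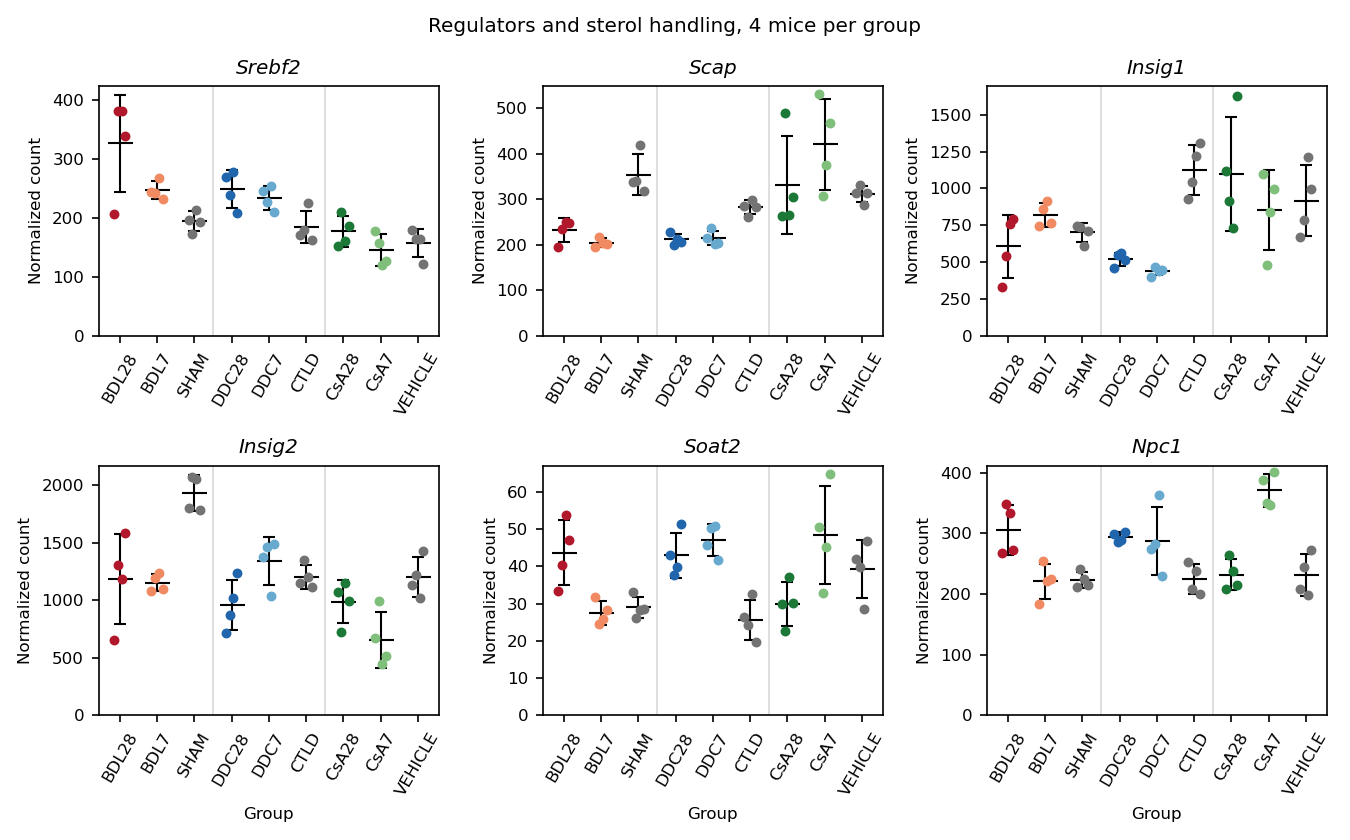
Normalized counts of 6 genes of the sensor and of sterol handling in each liver (points), with the mean and SD of 4 livers per group (bars). Insig1 is lower in both DDC groups than in CTLD, Insig2 is highest in SHAM and lower in both ligation groups, which lie near CTLD and VEHICLE, and Npc1 is highest in CsA7.

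Among genes of sterol handling, Soat2 and Npc1 rose with both models. Soat2, which stores cholesterol as ester in hepatocytes and is a different gene from the thiolase Acat2, had 33.4, 40.4, 53.9 and 47.2 in BDL28, 31.7, 24.4, 25.9 and 28.2 in BDL7 and 33, 26.1, 28.4 and 28.5 in SHAM. BDL28 lay just above SHAM, by 0.56 ± 0.19 (limma adjusted p = 0.0149), and that call was lost without BDL28 replicate 3 and under quantile normalization. It had 43, 37.7, 39.8 and 51.4 in DDC28, 45.7, 50.3, 50.8 and 41.8 in DDC7 and 26.4, 24.3, 32.6 and 19.6 in CTLD. All DDC livers lay above CTLD, by 0.73 ± 0.19 (limma adjusted p = 0.0015) and 0.87 ± 0.19 (adjusted p = 0.000306). The models differed on day 7, since the BDL7 effect minus the DDC7 effect was -0.94 ± 0.27 (limma adjusted p = 0.0241), though DESeq2 did not call it, nor did the fit without CTLD replicate 4. Soat2 is thinly covered, with 84 to 236 reads summed over the 4 libraries of a group, fewer than any other of the 28 genes in its lowest group.

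Npc1, which exports cholesterol from lysosomes, had 269, 349, 334 and 273 in BDL28, 184, 254, 222 and 224 in BDL7 and 212, 241, 224 and 215 in SHAM. It rose in BDL28 without overlap, by 0.45 ± 0.12 (limma adjusted p = 0.0022). With DDC it had 299, 286, 289 and 303 in DDC28, 274, 283, 364 and 229 in DDC7 and 252, 209, 237 and 199.7 in CTLD. It rose in both, by 0.39 ± 0.12 (limma adjusted p = 0.00567) and 0.34 ± 0.12 (adjusted p = 0.0181), and the DDC7 call was lost without CTLD replicate 2 or 4 or DDC7 replicate 3. Its last 500 bases overlap Rmc1 on the other strand, with the same uncertainty as above.

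Stard4, a cytosolic carrier of cholesterol, fell on day 7, at 169, 216, 260.2 and 201 in BDL7 against 347, 280.5, 344 and 389 in SHAM and at 185, 193, 199 and 219 in DDC7 against 317, 254, 239 and 311 in CTLD. No liver overlapped with its controls, and the differences were -0.69 ± 0.19 (limma adjusted p = 0.00476) and -0.48 ± 0.19 (adjusted p = 0.039). Total-read scaling ended both calls, and the DDC7 call was lost under 8 of 18 alternatives, among them the omission of DDC7 replicate 1, 2 or 3 or CTLD replicate 1 or 4. On day 28 the level was 220.4, 345, 377 and 284 in BDL28 and 212, 318, 241 and 204 in DDC28, and neither difference passed the test. Mylip, whose product marks lipoprotein receptors for breakdown, rose in DDC28 at 80.3, 58.4, 84.1 and 93.7 in DDC28 against 52.7, 42.1, 39.1 and 46.9 in CTLD. The groups did not overlap, and the difference was 0.78 ± 0.21 (limma adjusted p = 0.00256).

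Between the 2 stages of ligation the share of the 28 genes called was near that of all genes. In BDL28 against BDL7 8 genes rose and 2 fell, with 30.7% of all genes called, 14% higher and 16.7% lower. This comparison uses no control. Hsd17b7 rose most, by 0.87 ± 0.16 (limma adjusted p = 0.000118), and Sc5d fell by 0.63 ± 0.14 on the log2 scale (adjusted p = 0.000739). Npc1 rose by 0.47 ± 0.12 (limma adjusted p = 0.00294), and these 3 calls were kept under all 18 alternatives. Soat2 (0.63 ± 0.19) and Cyp51 (0.42 ± 0.13) rose in a fit that lost both without BDL28 replicate 3. The Cyp51 call was also lost under total-read scaling and under quantile normalization. Fdft1, Sqle, Msmo1 and Stard4 rose by 0.45 to 0.53, and Dhcr7 fell (-0.64 ± 0.23). Each of these 5 lost its call without some single library. The count of 10 ran over 4 to 13 when 1 library was left out, and the 3871 calls over all genes ran over 2573 to 4662. The count of the 28 genes was 4 without BDL28 replicate 3 (3034 over all genes). It was 5 without BDL28 replicate 2 (2573) or BDL7 replicate 4 (3344) and 6 without BDL7 replicate 1 (3047) or 2 (3326).

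In DDC28 against DDC7 0 of the 28 genes passed the limma test, with 5.7% of all genes called, 2.07% higher and 3.63% lower. An unadjusted p under 0.05 was reached by 7. Of the 28, edgeR called 0 and DESeq2 called 1, with 982 and 1015 of all genes. Quantile normalization gave 2 and a fit of only these groups 6, which were Mvk, Fdft1, Sqle, Lss, Tm7sf2 and Hsd17b7. Hsd17b7 came nearest, at 0.49 ± 0.16 (limma adjusted p = 0.0647), with no overlap of the groups, and Tm7sf2 was higher in every DDC28 liver than in every DDC7 liver (0.44 ± 0.16, adjusted p = 0.108). The change between days, set against each other in ligation and DDC, gave 0 of the 28 genes past the limma test. Of all genes 1.48% were called (0.603% higher, 0.873% lower). Of the 28, 6 had an unadjusted p under 0.05, and 0 were called by edgeR or DESeq2, with 303 and 492 of all genes. Without BDL28 replicate 1 the test was passed by 3, Hsd17b7, Sc5d and Soat2, and without BDL28 replicate 4 by 1, Tm7sf2.

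**Figure D4:**
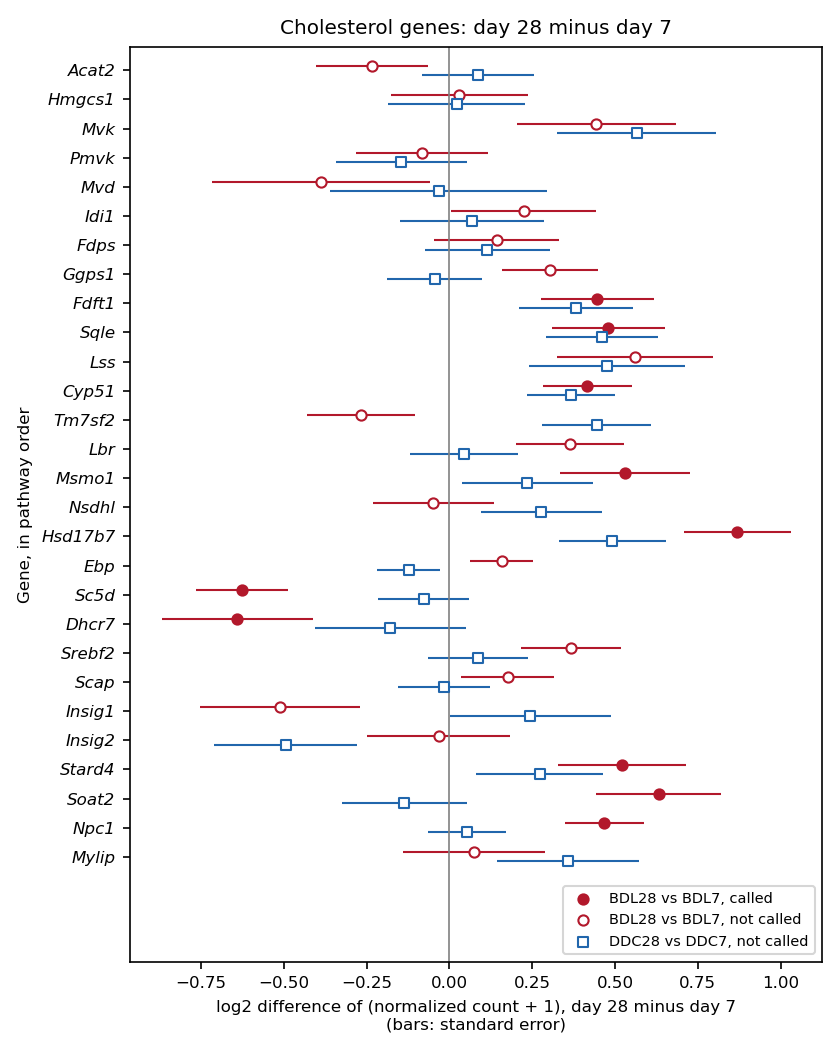
Difference of log2(normalized count + 1) between day 28 and day 7 for the 28 genes in ligated livers (red circles, filled where the limma adjusted p was under 0.05) and DDC-fed livers (blue squares), with standard errors. The symbols of Fdft1, Sqle, Lss, Cyp51, Msmo1 and Hsd17b7 lie to the right of 0 in both models, while Sc5d and Dhcr7 lie to the left and are filled in ligation.

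The effects of ligation and DDC were also subtracted from each other. On day 28 0 of 28 were called by limma, with 10.3% of all genes called (4.69% higher, 5.59% lower). Of the 28, 3 had an unadjusted p under 0.05, and 0 were called by edgeR or DESeq2, with 1169 and 1178 of all genes. One gene was called without BDL28 replicate 1 (Insig1), without BDL28 replicate 4 or CTLD replicate 3 (Ggps1), or without DDC28 replicate 4 (Cyp51). On day 7 the 2 genes called, with 8.46% of all genes (3.78% higher, 4.68% lower), were Insig1 and Soat2, 1 higher and 1 lower. Leaving out CTLD replicate 4 left Insig1 alone, and total-read scaling gave 1 higher and 2 lower, with Insig2 added. A fit of only these groups gave 6, with Mvd, Fdps, Cyp51 and Insig2 added.

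With cyclosporin A nearly all enzymes averaged above VEHICLE, and no enzyme passed the limma test with all libraries and the deposited scaling. In CsA28 DESeq2 called Hmgcs1, Pmvk and Hsd17b7, and total-read scaling called Hmgcs1 and Hsd17b7. In CsA7 total-read scaling called Acat2, Cyp51, Msmo1, Nsdhl and Hsd17b7. In CsA28 all 20 enzymes had a difference above 0, with a median of 0.45 against -0.0011 over all genes. One library carried much of this: the median deviation of the 20 enzymes from the VEHICLE mean was 0.32, 1.07, 0.09 and 0.33 in CsA28 replicates 1 to 4. Without CsA28 replicate 2 the median was 0.25 and 18 of 20 were above 0. In CsA7 19 of 20 were above 0, with a median of 0.29 against 0.0016 over all genes, and the deviations of its 4 libraries were 0.61, 0.14, 0.34 and 0.19, against -0.02, -0.13, 0.11 and 0.07 in VEHICLE. The days share their VEHICLE libraries, so the 2 medians are not independent.

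**Figure D5:**
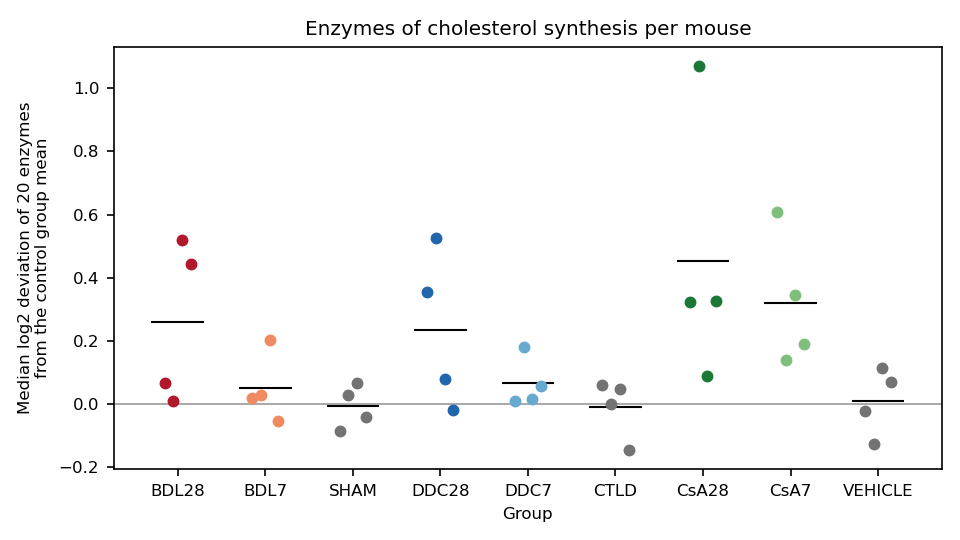
Median over the 20 enzymes of the log2 deviation from the mean of the group's own control, for each liver (points), with the group mean (line). All livers of CsA28 and CsA7 lie above 0, with CsA28 replicate 2 at 1.07, and the ligation and DDC groups lie between -0.05 and 0.53.

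The genes that cyclosporin A did move past the test were Npc1 and Insig2, on day 7. Npc1 had 208, 265, 239 and 215 in CsA28, 388, 349.8, 346 and 401 in CsA7 and 208, 244, 198 and 274 in VEHICLE. CsA7 stood above both other groups without overlap, by 0.69 ± 0.12 over VEHICLE (limma adjusted p = 0.000487), and CsA28 fell below CsA7 by a difference of -0.68 ± 0.12 (adjusted p = 0.000795). Both calls were kept under all 18 alternatives. In CsA7 1 macrophage marker rose (Gpnmb, 1.96 ± 0.55, limma adjusted p = 0.0354) and 1 cholangiocyte marker fell (Sox9, -1.13 ± 0.32, adjusted p = 0.0384). The sum of the macrophage markers ran over 478.8–807 in CsA7 and 539–849.4 in VEHICLE, and that of the cholangiocyte markers over 196.2–293.4 in CsA7 and 284.6–489.6 in VEHICLE. Their part in the result on Npc1 was not tested. Insig2 had 1074, 728, 1152 and 995 in CsA28, 675, 993, 445 and 518 in CsA7 and 1128, 1221, 1016 and 1425 in VEHICLE. All 4 CsA7 livers lay below VEHICLE, with a difference of -0.92 ± 0.22 (limma adjusted p = 0.0118) that was lost without CsA7 replicate 3 or 4 and when only these groups were fitted. In CsA28 against CsA7 1 of 28 genes was called, Npc1, with 2.45% of all genes called (1.37% higher, 1.07% lower). That count was 4 without CsA7 replicate 2 and 2 without CsA28 replicate 2 or 3. These fits called 326, 352 and 219 of all genes, against 308 with all libraries.

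The control groups themselves differed, which bears on any level set across models. Among SHAM, CTLD and VEHICLE 6 of 28 genes passed an F test, with 19.4% of all genes called. Hmgcs1 was 2197 ± 190.1 in SHAM, 1539 ± 211 in CTLD and 1183 ± 233 in VEHICLE (SD, n = 4 each, limma adjusted p = 0.00673). Idi1 (adjusted p = 0.00286), Cyp51 (0.00377), Insig2 (0.0253), Hsd17b7 (0.0306) and Msmo1 (0.0454) also passed, each highest in SHAM. The count was 3 without SHAM replicate 2. Surgery, gavage and diet differ between these groups, and what sets their levels was not tested.

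Other genes of the pathway were read from 5 lists, whose counts stand against shares of all genes called of 46.8% in BDL28, 38.7% in BDL7, 52.7% in DDC28, 46.8% in DDC7, 0.0238% in CsA28 and 4.03% in CsA7. Of 9 genes that process SREBP or break down its partners in response to sterol, 3 rose and 2 fell in BDL28, 2 and 1 in BDL7, 2 and 1 in DDC28, 3 and 2 in DDC7, 0 and 0 in CsA28 and 1 and 0 in CsA7. Rnf145, a ubiquitin ligase that can mark SCAP, was the gene called in 5 of the 6, with differences of 1.17 ± 0.17 in BDL28, 1.45 ± 0.17 in BDL7, 1.17 ± 0.17 in DDC28, 1.15 ± 0.17 in DDC7 and 0.86 ± 0.17 in CsA7. Mbtps2, a protease that frees SREBP, rose in BDL28 (0.88 ± 0.20), DDC28 (1.12 ± 0.20) and DDC7 (1.07 ± 0.20). Srebf1, the sister factor of fatty acid synthesis, rose in BDL28 (1.19 ± 0.24) and BDL7 (1.16 ± 0.24) and fell in DDC7 (-1.02 ± 0.24). The median difference of the 9 genes was -0.09 in BDL28, 0.07 in BDL7, 0.11 in DDC28 and -0.02 in DDC7, against 0.03, 0.01, 0.04 and 0.04 over all genes.

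Genes of acetyl-CoA supply and ketone body synthesis fell with both models. Of 6, 0 rose and 6 fell in BDL28, 0 and 4 in BDL7, 0 and 5 in DDC28 and 0 and 4 in DDC7, and none was called with cyclosporin A. Of all genes 22.7%, 18.5%, 24.7% and 22.1% were called lower in BDL28, BDL7, DDC28 and DDC7. The median differences of the 6 genes were -1.25, -0.72, -0.96 and -0.89 in these groups, against 0.03, 0.01, 0.04 and 0.04 over all genes. Acat1, the mitochondrial thiolase of ketone body synthesis, had 434, 744, 685 and 733 in BDL28, 419, 388, 453 and 393 in BDL7 and 1113, 1146, 1229.8 and 1105 in SHAM. It had 515, 479, 559 and 597 in DDC28, 502, 440.3, 675 and 489 in DDC7 and 1416, 1332, 1464 and 1416 in CTLD. Every one of these treated livers lay below its controls, and Acat1 was among the 6 that fell in BDL28. In the other groups its differences were -1.47 ± 0.14 in BDL7 (limma adjusted p = 2.35e-10), -1.39 ± 0.14 in DDC28 (adjusted p = 2.5e-10) and -1.43 ± 0.14 in DDC7 (adjusted p = 2.41e-10).

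Of 14 genes of sterol transport and esterification, 5 rose and 1 fell in BDL28, 4 and 1 in BDL7, 7 and 1 in DDC28 and 6 and 1 in DDC7. Npc2, the lysosomal partner of Npc1, rose in BDL28 (0.45 ± 0.10), BDL7 (0.46 ± 0.10), DDC28 (1.16 ± 0.10) and DDC7 (0.91 ± 0.10). Soat1, the ester-forming enzyme of macrophages and other cells, rose in DDC28 (2.41 ± 0.24), DDC7 (1.83 ± 0.24) and BDL7 (1.53 ± 0.24), and in BDL28 (0.71 ± 0.24) its call was lost without BDL28 replicate 1 or SHAM replicate 4. Macrophage markers, given above, were higher in the same groups. Of 8 genes of LXR and its targets, 2 rose and 2 fell in BDL28 and in BDL7, and 3 and 3 in DDC28 and in DDC7. In CsA7 2 of these 8 rose, and neither list had any other call with cyclosporin A. Nr1h3, which encodes LXR alpha, fell in BDL28 (-0.87 ± 0.11) and DDC28 (-0.95 ± 0.11). It also fell in BDL7 (-0.50 ± 0.11) and in DDC7, and total-read scaling ended both of these day 7 calls. Abcg5, which with Abcg8 pumps sterol into bile, rose in BDL28 (1.19 ± 0.28), DDC28 (1.85 ± 0.28) and DDC7 (1.14 ± 0.28). It also rose in CsA7 (1.02 ± 0.28). That call was lost with no filter and without VEHICLE replicate 3 or CsA7 replicate 3 or 4. Abcg8 rose in CsA7 (1.09 ± 0.20) and DDC28 (1.31 ± 0.20) and fell in BDL7 (-0.71 ± 0.20), a call lost under total-read scaling. In DDC7 it rose (0.51 ± 0.20). Of 10 genes of isoprenoid branches, 0 rose and 3 fell in BDL28, 0 and 1 in BDL7, 2 and 1 in DDC28, 2 and 2 in DDC7, 0 and 0 in CsA28 and 1 and 1 in CsA7. Dhdds, a subunit of the enzyme that makes dolichol, fell in BDL28 (-0.73 ± 0.16), DDC28 (-0.92 ± 0.16) and DDC7 (-0.72 ± 0.16). In CsA7 it fell too (-0.57 ± 0.16). That call was lost under total-read scaling and without any one of VEHICLE or CsA7 replicates 2, 3 and 4, among other alternatives.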

How the data were processed

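RNA of 36 mouse livers, 9 groups of 4, was sequenced from the 3′ ends of transcripts (QuantSeq FWD with molecular identifiers). Per the submitters' processing notes, the build was GRCm39, and the tools included STAR 2.7.9a, RSEM 1.3.1 and UMI-tools 1.1.1, with DESeq2 and Trim Galore. The sources used here do not give their settings, the annotation or the counting strand. The deposited signal values behave as normalized counts, each library's gene counts having been scaled by the authors with a single factor. Steps of low values gave whole reads within 0.001 for 100.0% of values in each library. Symbols were matched through GENCODE M21 for 29121 of 29546 genes, and 28 duplicated symbols were left as identifiers.

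Genes at 10 or more in at least 4 libraries were kept (12596). log2(value + 1) was fitted with limma 3.58.1 in R 4.3.3 (trend and robust) over all 9 groups, with p-values adjusted by Benjamini-Hochberg over all genes tested. The design text gives 4 mice a group. The alternatives were total-read scaling, quantile normalization, no filter, other pseudocounts, edgeR 4.0.16 and DESeq2 1.42.0 on the recovered reads, a fit of only the groups compared, no trend, a replicate block and leaving out each library. Beyond the 28 genes, the genes named were chosen among the 3 called with the lowest adjusted p in each list and comparison, and for marker lists among the 3 with the highest mean. The 28 genes, the lists and the markers were chosen with earlier results of these data known. A pair of genes from the other lists is not reported here and was left out of their counts. Scripts were tested on simulated data.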

Additional observations from a re-analysis of the deposited data

Results flagged for a closer look

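Of 252 sets of 4 livers (28 genes in 9 groups), 15 held a liver far from the other 3, and chance flags about 1 in 20 such sets. In CsA28, replicate 2 was the high liver for Fdft1 (446, others 253 to 264), Tm7sf2 (554, others 351 to 372) and Nsdhl (603, others 315 to 346). In BDL7, replicate 3 was the high liver for Hmgcs1 (4010, others 3300 to 3410), Lss (210, others 154 to 160) and Msmo1 (1390, others 1010 to 1070). In DDC7, replicate 3 was low for Ggps1 (46.8, others 68.2 to 69.4) and high for Msmo1 (1170, others 1010 to 1040). In DDC28, Sqle was low in replicate 3 (465, others 504 to 512) and Ebp high in replicate 2 (578, others 494 to 502). Among controls, Acat2 was high in VEHICLE replicate 1 (348, others 334 to 335) and low in CTLD replicate 4 (309, others 377 to 390). Tm7sf2 was high in VEHICLE replicate 4 (393, others 300 to 312), Ebp was high in VEHICLE replicate 3 (1020, others 833 to 836), and Fdft1 was low in SHAM replicate 1 (237, others 284 to 292).

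The effects of ligation and DDC on day 7 differed for 2 genes by the limma test of the difference. The BDL7 effect minus the DDC7 effect was 1.58 for Insig1 and -0.94 for Soat2.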

How the results depend on the processing

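Of 62 calls of the 28 genes against controls, 41 were kept under every alternative. The other 21 were lost under at least one, and 1 of these, Sc5d in BDL7, also turned direction under quantile normalization (0.0901). Mbtps1, the gene of a protease that cuts SREBP, fell in BDL7 by 0.22 on the log2 scale and turned to 0.10 under total-read scaling. Total-read scaling gave 15 calls in BDL7, 2 in CsA28, 9 in CsA7, 2 in CsA28 against CsA7, 1 in DDC28 against DDC7 and 1 for the difference between the models on day 28. Quantile normalization gave 2 in DDC28 against DDC7. Without a filter there were 5 in BDL28 against BDL7, 1 for the model difference on day 7 and 3 among the controls. Fits of only the groups compared gave 13 in BDL7, 6 in BDL28 against BDL7, 6 in DDC28 against DDC7, 6 for the model difference on day 7 and 10 among the controls. DESeq2 gave 3 in CsA28 and 1 in DDC28 against DDC7. CsA28 against CsA7 gave 2 with a pseudocount of 5, edgeR, DESeq2 and limma without trend. There edgeR and DESeq2 called 402 and 450 of all genes. Under the scaling, filter and other limma alternatives above, calls over all genes are not given, so those counts have no share beside them. DESeq2 was not run for the controls. Over all genes, edgeR called 5851 in BDL28 vs SHAM and 6616 in DDC28 vs CTLD, against 5896 and 6633 by limma.

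Leaving out 1 library gave 16 to 18 calls in BDL28, 7 to 8 in BDL7, 18 to 21 in DDC28, 11 to 14 in DDC7, 0 to 1 in CsA28 and 1 to 4 in CsA7. It gave 4 to 13 in BDL28 against BDL7, 1 to 4 in CsA28 against CsA7 and 0 in DDC28 against DDC7. It gave 0 to 1 for the model difference on day 28, 1 to 3 for that on day 7, 0 to 3 for the difference in day changes and 3 to 9 among the controls. Over all genes the same fits called 5323 to 5699 in BDL28, 4297 to 4514 in BDL7, 6087 to 6372 in DDC28 and 5172 to 5619 in DDC7. They called 0 to 36 in CsA28, 228 to 489 in CsA7 and 2573 to 4662 in BDL28 against BDL7. In CsA28 against CsA7 they called 127 to 352, and in DDC28 against DDC7 351 to 791. For the differences between models or day changes and among the controls, calls over all genes are not given here. The cause of these changes was not tested.

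The replicate numbers are shared between groups but name no pairs, and same-numbered livers did not deviate together in all pairs of any comparison. In DDC28 against CTLD 6 of 8 libraries and in BDL28 against BDL7 5 of 8 correlated best with their own number, a hint from the data and not the design, and 0 to 2 of 8 did in the other comparisons. The numbers are those of the sample descriptions, and the other numbers in the sample titles were not compared. The replicate block gave 1 call in DDC28 against DDC7, where none was made without it, and moved no other count by over 1.5 times. At 2081093 to 3770267 reads a library, thinly covered genes such as Soat2 are the least precise.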
